A study of Mus musculus with 10 samples.

Results

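The 8 genes described here, Foxn1, Psmb11, Prss16, Ccl25, Dll4, Ly75, Ctsl and Aire, are known markers of the thymic epithelium, and the question was how they behave in mediastinal lymphomas and whether they vary with the epithelial keratin genes Krt5 and Krt8. They were chosen by name, and each was read from the probe set that carries its symbol alone and has the highest mean of those that do. All 8 had such a probe set, out of 19937 genes that did. The tumours were primary mediastinal T cell lymphomas that arose spontaneously in NPM-ALK transgenic mice, which carry the fusion tyrosine kinase known from anaplastic large cell lymphoma. The mice were C57BL/6 and developed lymphoma at 4-5 months of age. One group was NPM-ALK and WASP-deficient (5 mice, lacking the actin regulator encoded by Was, with either sex used per the labels and no sex given for single animals) and the other was NPM-ALK with intact WASP, labelled WT (5 mice). Each mouse gave 1 microarray of total RNA, so that the spread reported is between animals, and both groups carry the transgene, so that no normal thymus enters the comparison. The labels do not say which promoter drives NPM-ALK.

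Thymic epithelial cells form the meshwork in which T cells mature. Cortical cells attract progenitors, give them the Notch signal and present peptides for positive selection, whereas medullary cells display peripheral antigens so that self-reactive thymocytes are deleted. The transcription factor Foxn1 is needed for both kinds of cell to form. In the mouse thymus Krt8 is known mainly from the cortex and Krt5 mainly from the medulla, and both keratins are also made by many other epithelia.

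The promoters of 7 of the 8 genes were found in RefSeq (GRCm38.p6) as windows from 250 bases before to 50 bases after the transcription start. Ccl25 has 2 such starts there, and these are shown because its 2 probe sets on the array gave different results. Whether either probe set belongs to either start was not examined. Psmb11 is shown because it is a known direct target of Foxn1. Capitals mark GACGC, the known core of the Foxn1 binding site, or its reverse complement GCGTC, and TATAAA, searched on both strands. The motifs searched do not overlap each other. The Ccl25 windows are at chr8:4324960-4325259, plus strand, and chr8:4349338-4349637, plus strand, and the Psmb11 window is at chr14:54625060-54625359, plus strand.
Ccl25 start 1: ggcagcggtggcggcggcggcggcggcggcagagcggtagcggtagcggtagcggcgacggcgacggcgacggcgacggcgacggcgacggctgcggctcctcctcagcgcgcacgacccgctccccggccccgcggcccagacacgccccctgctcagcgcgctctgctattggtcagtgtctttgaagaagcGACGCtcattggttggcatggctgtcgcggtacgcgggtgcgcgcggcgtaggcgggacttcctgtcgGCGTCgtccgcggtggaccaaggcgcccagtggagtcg
Ccl25 start 2: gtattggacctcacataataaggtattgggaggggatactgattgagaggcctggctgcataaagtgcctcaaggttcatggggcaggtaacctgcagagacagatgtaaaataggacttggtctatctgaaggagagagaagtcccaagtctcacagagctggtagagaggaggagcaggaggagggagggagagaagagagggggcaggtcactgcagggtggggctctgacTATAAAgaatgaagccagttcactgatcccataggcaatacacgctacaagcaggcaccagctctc
Psmb11: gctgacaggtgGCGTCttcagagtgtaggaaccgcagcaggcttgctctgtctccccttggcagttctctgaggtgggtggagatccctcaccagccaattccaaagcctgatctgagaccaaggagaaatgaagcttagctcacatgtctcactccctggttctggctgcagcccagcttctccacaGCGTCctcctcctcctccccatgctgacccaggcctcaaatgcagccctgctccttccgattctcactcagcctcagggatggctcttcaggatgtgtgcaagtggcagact

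The first Ccl25 window held GACGC at -56 and GCGTC at 13 from the start, with 52 CpG dinucleotides and 74.0% G and C. The second held neither, had 1 CpG and 51.7% G and C, and had TATAAA at -16. The Psmb11 window held GCGTC at -239 and -62. Aire had GCGTC at -189 and TATAAA at -29, and the windows of Foxn1, Dll4, Ly75 and Ctsl held neither motif. GACGC on either strand was found in 27.2% of all 32851 promoter windows of this length and TATAAA in 13.6%, so that a match describes the letters and shows no binding.

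All levels below are log2 of the deposited intensity, and differences are WASP-deficient minus WT on that scale, with n = 5 arrays per genotype. The arrays were alike in overall brightness, with medians of 116.7 to 122.7 before the log was taken, and their number limits the precision. Was, the check of the genotype, averaged 8.08 ± 0.13 in WASP-deficient lymphomas and 9.22 ± 0.10 in WT lymphomas (SD), a difference of -1.14 (SE 0.08, limma adjusted p = 0.00088). Of the T cell genes, Cd3e was at 12.06 to 12.59 on WASP-deficient arrays and 12.21 to 12.38 on WT arrays, but other T cell receptor chain genes were not even over the arrays. Over all genes, the leading principal component (60.9% of the variance) set 3 arrays apart from the other 7, namely WASP-deficient array 1 and WT arrays 4 and 5. On those 3 arrays Cd2 was at 11.18 to 11.52, against 6.10 to 6.90 on the other 7, and Cd3d was at 5.26 to 6.47, against 8.96 to 10.08. Cd3g was at 10.24 on WASP-deficient array 1 and at 6.29 and 6.97 on WT arrays 4 and 5, against 11.45 to 12.23 on the other 7. WT array 4 also stood apart in muscle genes, with a summed level of 12.77 against 9.84 to 10.39 on the other 9 arrays. Xist was at 4.50 to 5.58 on WASP-deficient arrays and at 11.52 to 11.90 on 4 WT arrays, with WT array 3 at 4.40, so that no WASP-deficient array had the high level, typical of females, of those 4. Low Xist and WASP deficiency went together on 9 of the 10 arrays, and the parts of sex and genotype cannot be told apart there.

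The 8 genes covered a wide span of signal. Among the means of all probe sets, Ctsl stood at percentile 96.7, Ly75 at 67.5, Ccl25 at 66.3, Aire at 55.2, Dll4 at 52.6 and Prss16 at 42.1. Psmb11, at 38.3, and Foxn1, at 27.4, lay under the filter on dim probe sets, which was set at percentile 40 (log2 6.35). Ly75 and Ctsl are also made by dendritic cells and macrophages. Probe sets differ in brightness for the same RNA amount, so the order does not rank the transcripts. In tumour RNA, fewer cells of a type and less RNA per cell cannot be told apart.

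None of the 8 genes passed the test of genotype. Of the 6 past the filter, 0 had a limma adjusted p under 0.05, where 1 of 12670 genes did (0.00789%, which is Was). Without the filter all 8 entered, and 0 of 8 passed, where 1 of 19937 genes did (0.00502%). At an unadjusted p under 0.05 the count was also 0 of 6, against 366 genes (2.89%). In no member did the 2 groups of arrays separate completely, which 0.568% of genes did. The difference was above 0 in 6 of the 8 and below 0 in 2, and its median was 0.14, against -0.004 over all genes tested. The range over the 10 arrays was 0.28 for Psmb11 and 2.34 for Prss16, the narrowest and widest of the 8, against a median range of 0.65 over all genes tested.

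**Figure D1:**
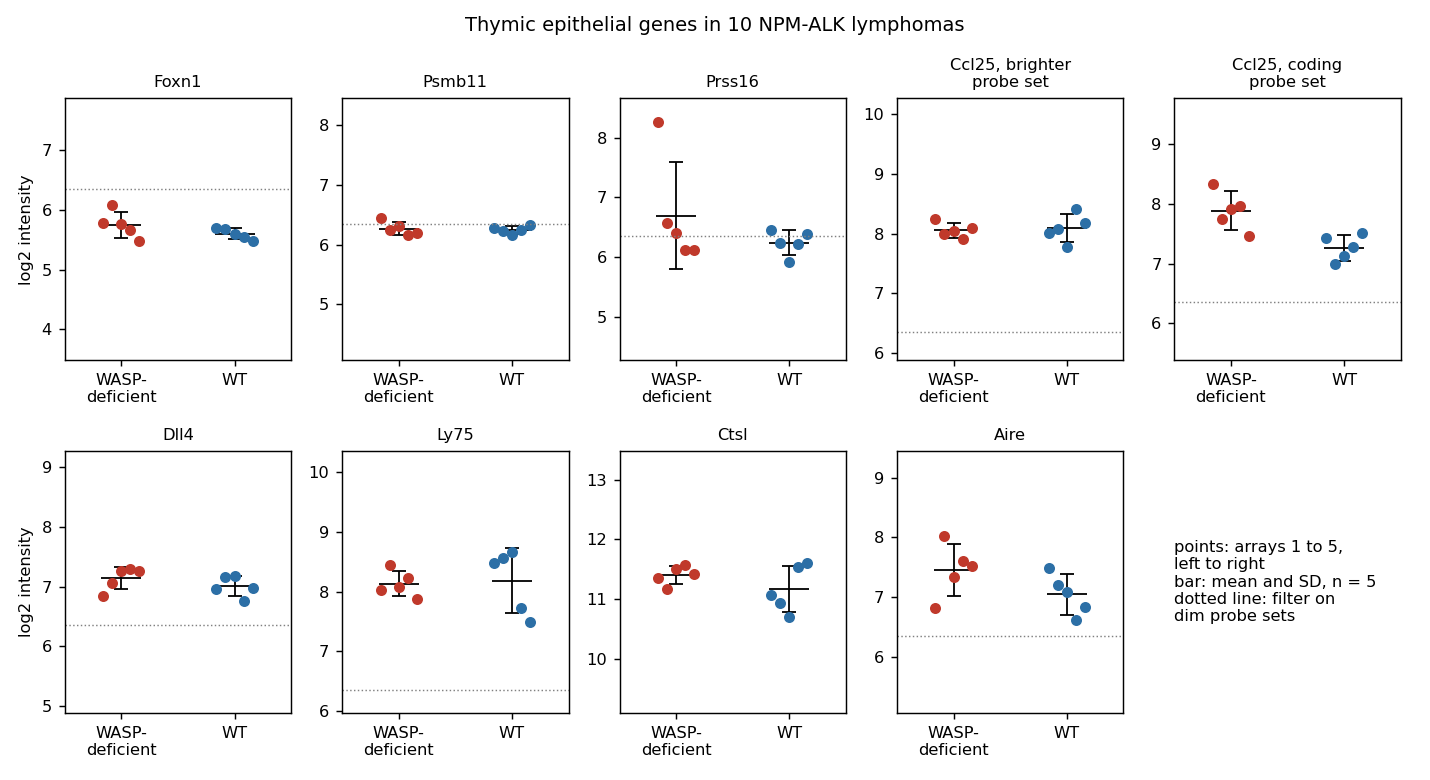
Log2 intensity of each gene on each array, WASP-deficient left and WT right, with points as arrays, bars as mean and SD (n = 5) and the dotted line as the filter at log2 6.35; each panel has its own vertical range. Groups overlap in every panel, and WASP-deficient array 1 stands alone for Prss16 at 8.25.

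Foxn1, the master regulator of the lineage, was at 5.78, 6.08, 5.77, 5.66 and 5.47 on WASP-deficient arrays 1 to 5, against 5.71, 5.69, 5.59, 5.55 and 5.48 on WT arrays 1 to 5. WASP-deficient arrays 1, 2 and 3 lay above all WT arrays, array 2 highest, and WASP-deficient arrays 4 and 5 lay among or below them. The means were 5.75 ± 0.22 in WASP-deficient and 5.60 ± 0.09 in WT lymphomas (SD), and the difference of 0.15 (SE 0.11) did not pass (limma adjusted p = 0.999 without the filter, exact two-sided permutation p = 0.222). Without WASP-deficient array 2 the difference was 0.067. With 5 arrays per group such an exact test cannot go below 0.00794.

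Psmb11 encodes the beta5t subunit of the thymoproteasome, which cortical cells use to cut peptides for positive selection. Its values were 6.44, 6.24, 6.31, 6.16 and 6.20 on WASP-deficient arrays 1 to 5, against 6.28, 6.23, 6.16, 6.26 and 6.34 on WT arrays 1 to 5. WASP-deficient array 1 was the highest, all 10 values lay close together, and the groups overlapped. The difference was 0.02 (SE 0.07).

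Prss16 encodes a serine protease of the cortex with a part in peptide supply for selection of CD4 T cells. It was at 8.25, 6.57, 6.41, 6.12 and 6.11 on WASP-deficient arrays 1 to 5, against 6.44, 6.23, 5.91, 6.21 and 6.39 on WT arrays 1 to 5. A single array, WASP-deficient array 1, was far above the rest, and the other 4 WASP-deficient arrays overlapped with WT. The means were 6.69 ± 0.89 in WASP-deficient and 6.23 ± 0.21 in WT lymphomas (SD), and the difference was 0.46 (SE 0.37). Without WASP-deficient array 1 it was 0.07.

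Ccl25 encodes the chemokine that draws Ccr9-bearing progenitors into the thymus, and it was read by 2 probe sets that did not vary together (r = 0.11 over 10 arrays). The brighter of them, which the selection rule takes, is annotated with a non-coding RefSeq transcript and an mRNA record but not with the protein-coding RefSeq transcript. The other is annotated with the coding transcript and was added after its values were seen. The brighter probe set gave 8.24, 7.99, 8.05, 7.92 and 8.09 on WASP-deficient arrays 1 to 5, against 8.01, 8.08, 7.78, 8.42 and 8.18 on WT arrays 1 to 5. The 3 highest values were those of the 3 arrays set apart on the leading component, and the genotypes overlapped, with a difference of -0.03 (SE 0.12).

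The coding probe set of Ccl25 gave 8.34, 7.75, 7.92, 7.96 and 7.46 on WASP-deficient arrays 1 to 5, against 7.43, 6.99, 7.13, 7.28 and 7.52 on WT arrays 1 to 5. Here 4 of 5 WASP-deficient arrays lay above all WT arrays, and WASP-deficient array 5 lay among them. Its mean was 7.89 ± 0.32 in WASP-deficient and 7.27 ± 0.22 in WT lymphomas (SD), and the difference of 0.62 (SE 0.16) had an unadjusted exact two-sided permutation p of 0.0159. Over all genes it did not pass (limma adjusted p = 0.999).

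Dll4 encodes the Notch ligand by which cortical epithelium commits progenitors to the T lineage, and it is also made by endothelium. It was at 6.85, 7.07, 7.27, 7.29 and 7.25 on WASP-deficient arrays 1 to 5, against 6.97, 7.16, 7.17, 6.76 and 6.97 on WT arrays 1 to 5. WASP-deficient arrays 3, 4 and 5 were the highest and WT array 4 the lowest, with overlap between the groups. The difference was 0.14 (SE 0.11, exact two-sided permutation p = 0.286). It was 0.077 without WT array 4, 0.21 without WASP-deficient array 1 and 0.010 with the Xist level as covariate. The endothelial gene list, which bears on Dll4 as its other source, had summed levels of 11.69 to 12.08 in WASP-deficient lymphomas and 11.73 to 12.04 in WT lymphomas. None of its 13 tested genes passed, with 3 differences above 0 and 10 below, Kdr at -0.28 (SE 0.10) and Esam at -0.18 (SE 0.12) having the smallest p. Its part in the Dll4 signal was not tested.

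Ly75 encodes the endocytic receptor DEC-205 of cortical epithelium and dendritic cells. Its values were 8.03, 8.45, 8.09, 8.22 and 7.88 on WASP-deficient arrays 1 to 5, against 8.48, 8.57, 8.67, 7.72 and 7.50 on WT arrays 1 to 5. WT arrays 1, 2 and 3 were the highest of the 10 and WT arrays 4 and 5 the lowest, with every WASP-deficient array between them. The difference was -0.05 (SE 0.23).

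Ctsl encodes cathepsin L, the lysosomal protease that cortical epithelium uses to process class II peptides, and macrophages make it as well. It was at 11.36, 11.18, 11.50, 11.56 and 11.41 on WASP-deficient arrays 1 to 5, against 11.06, 10.94, 10.69, 11.53 and 11.60 on WT arrays 1 to 5. WT arrays 1, 2 and 3 were the 3 lowest of the 10, whereas WT arrays 4 and 5 lay with the WASP-deficient arrays. The difference was 0.24 (SE 0.17, exact two-sided permutation p = 0.254), and 0.12 without WT array 3.

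For Ly75 and Ctsl the spread within WT thus followed the arrays set apart on the leading component. Over the other 7 arrays, 4 WASP-deficient and 3 WT, the genotypes did not overlap for these 2 of the 6 genes past the filter, which was so for 4.06% of all genes. Ccl25 overlapped there by its brighter probe set but not by its coding one, where WASP-deficient array 5 (7.46) lay just above WT array 1 (7.43). The difference there was -0.41 for Ly75 and 0.52 for Ctsl, and neither passed (limma adjusted p = 0.999). With the Xist level as covariate over all 10 arrays it was -0.52 (SE 0.35) for Ly75 and 0.68 (SE 0.23) for Ctsl, and again neither passed (limma adjusted p = 1). This view of 7 arrays was taken after the values were seen.

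Aire, the regulator that lets medullary cells transcribe peripheral antigens, had 6.81, 8.02, 7.33, 7.60 and 7.52 on WASP-deficient arrays 1 to 5, against 7.49, 7.20, 7.08, 6.61 and 6.83 on WT arrays 1 to 5. WASP-deficient array 2 was the highest, and the 3 arrays set apart on the leading component were the 3 lowest, so that the groups overlapped. The difference was 0.41 (SE 0.23, limma adjusted p = 0.999, exact two-sided permutation p = 0.127), and 0.27 without WASP-deficient array 2. The Aire-dependent antigen list did not pass in any of its 6 tested genes, 4 of them with a difference above 0. Its smallest p belonged to the milk protein gene Csn2, at 0.70 (SE 0.35), and to the apolipoprotein gene Apoa1, at 0.14 (SE 0.10). Csn2 was at 6.55, 8.03, 7.02, 7.65 and 6.38 on WASP-deficient arrays 1 to 5, against 7.34, 6.14, 6.38, 6.35 and 5.93 on WT arrays 1 to 5. As for Aire, its highest value was that of WASP-deficient array 2, with WASP-deficient array 4 next. The other tested antigens of the list did not share that highest array. Apoa1, Tff3, Sst and Tg were highest on WASP-deficient array 3. Pcp4 was highest on WT array 4, at 8.18, where Aire was lowest.

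**Figure D2:**
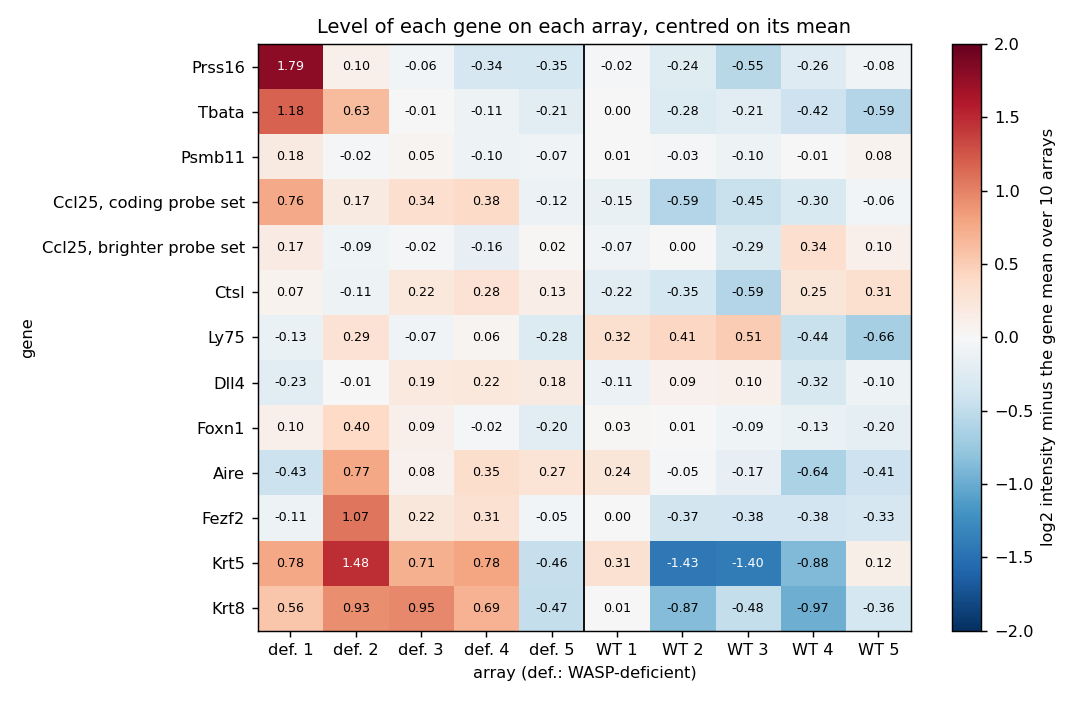
Log2 intensity minus the gene mean over the 10 arrays (colour and number) for the members, both Ccl25 probe sets, Tbata, Fezf2, Krt5 and Krt8, with WASP-deficient arrays left of the line and WT arrays right of it. Prss16, Tbata, Psmb11 and the coding Ccl25 probe set peak on WASP-deficient array 1, and Foxn1, Aire, Fezf2 and Krt5 on WASP-deficient array 2.

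The genes therefore did not form 1 pattern over the arrays. Cortical Prss16 peaked on WASP-deficient array 1, where medullary Aire was low, and Aire peaked on WASP-deficient array 2, where Prss16 was the second highest at 6.57. Psmb11 and the coding Ccl25 probe set also peaked on WASP-deficient array 1. Dll4 and Ly75, also of cortical epithelium, were below their means there (-0.23 and -0.13). Foxn1, needed for both kinds of cell, peaked on WASP-deficient array 2. Tbata, a thymic epithelial gene named after its values were seen and under the filter, was at 7.23, 6.69, 6.05, 5.95 and 5.85 on WASP-deficient arrays 1 to 5, against 6.06, 5.78, 5.85, 5.64 and 5.47 on WT arrays 1 to 5. Its highest array was thus the same as that of Prss16. Fezf2, which drives a further set of antigens in the medulla, was at 6.41, 7.58, 6.74, 6.82 and 6.47 on WASP-deficient arrays 1 to 5, against 6.51, 6.14, 6.14, 6.13 and 6.18 on WT arrays 1 to 5. It shared its highest array with Aire, and its difference of 0.58 (SE 0.20) did not pass (limma adjusted p = 0.999).

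Of the 28 pairs among the 8 genes, 2 had a Pearson permutation p that passed after Benjamini-Hochberg adjustment over the pairs. Psmb11 and Prss16, both of the cortical peptide machinery, went together (r = 0.85, adjusted permutation p = 0.0258, with rho = 0.77 and adjusted permutation p = 0.0892). The r was 0.76 without the 2 arrays farthest from the median, 0.87 with values centred within genotype and 0.79 over the 7 arrays together on the leading component. Ly75 and Ctsl went opposite ways (r = -0.85, adjusted permutation p = 0.0258, with rho = -0.84 and adjusted permutation p = 0.0892), with r = -0.81, -0.91 and -0.86 under the same 3 treatments. The narrow range of Psmb11 and its place under the filter limit what its r can carry. The share of all gene pairs that reach such an r was not computed, so the 2 pairs are a description of these arrays.

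Krt5 was at 8.25, 8.96, 8.18, 8.26 and 7.01 on WASP-deficient arrays 1 to 5, against 7.78, 6.04, 6.07, 6.59 and 7.59 on WT arrays 1 to 5. Krt8 was at 9.09, 9.45, 9.48, 9.21 and 8.05 on WASP-deficient arrays 1 to 5, against 8.53, 7.66, 8.05, 7.56 and 8.17 on WT arrays 1 to 5. In both, 4 of 5 WASP-deficient arrays lay above all WT arrays and array 5 did not, and the keratins followed each other (r = 0.90, permutation p = 0.001). The 3 arrays apart on the leading component lay within the range of the other 7 for Krt5. For Krt8, WT array 4 (7.56) lay just below the lowest of the 7 (7.66) and the other 2 within their range. The 10 arrays were kept together for the correlations, and the value over the 7 is given as well for the members and the leading genes of the lists.

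Set against Krt5 and Krt8 over the 10 arrays, 0 of the 16 pairs with the 8 genes passed after adjustment. Foxn1 had the highest r of the 8 with both, 0.64 with Krt5 (permutation p = 0.0397, adjusted 0.318, rho = 0.60 with permutation p = 0.0729) and 0.71 with Krt8 (permutation p = 0.0142, adjusted 0.228, rho = 0.65 with permutation p = 0.0492). Without the 2 arrays farthest from the keratin's median, r was 0.84 with Krt5 and 0.53 with Krt8. The relation of Foxn1 with Krt5 leaned on WASP-deficient array 2, with r = 0.44 without it and 0.31 without WASP-deficient arrays 1 and 2. With Krt8 it was 0.58 without these 2. Centred within genotype it was 0.51 and 0.64, and over the 7 arrays 0.67 and 0.66. A higher r than that of Foxn1 was found for 1.33% of genes past the filter with Krt5 and for 1.37% with Krt8.

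Aire had r = 0.49 with Krt5 (permutation p = 0.148, adjusted 0.503, rho = 0.50 with permutation p = 0.145) and 0.55 with Krt8 (permutation p = 0.0997, adjusted 0.503, rho = 0.55 with permutation p = 0.105). Over the 7 arrays, its r was 0.83 with Krt5 (exact p = 0.0141, adjusted over 16 pairs 0.225) and 0.63 with Krt8 (exact p = 0.123, adjusted 0.326), and centred within genotype 0.23 and 0.29. Without WASP-deficient array 2, its r with Krt5 over the other arrays was 0.25. Prss16 had r = 0.46 with Krt5 (permutation p = 0.189, adjusted 0.503, rho = 0.59 with permutation p = 0.0796) and 0.40 with Krt8 (permutation p = 0.284, adjusted 0.568, rho = 0.55 with permutation p = 0.103). For Prss16 the 7 arrays gave 0.72 and 0.58 (exact p = 0.0804 and 0.168). Neither gene therefore passed, and the share of genes with a higher r than Aire was 3.77% for Krt5 and 4.34% for Krt8.

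For the other members r with Krt5 was 0.47 for Ctsl, 0.39 for Psmb11, -0.0002 for Dll4, -0.03 for the brighter Ccl25 probe set and -0.13 for Ly75. With Krt8 it was 0.27 for Dll4, 0.26 for Psmb11, 0.25 for Ctsl, 0.14 for Ly75 and -0.31 for the brighter Ccl25 probe set. Permutation p-values, unadjusted, were between 0.173 and 0.9995 for these 10 pairs, so that no relation was shown. Over the 7 arrays r with Krt5 and Krt8 was 0.65 and 0.62 for Ctsl, 0.38 and 0.37 for Psmb11, -0.11 and 0.08 for Dll4, 0.14 and -0.04 for the brighter Ccl25 probe set, and -0.34 and -0.28 for Ly75. None of the 16 pairs passed there after adjustment.

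The coding probe set of Ccl25 behaved otherwise. With it in place of the brighter one, its r was 0.84 with Krt5 (permutation p adjusted over 16 pairs 0.027, rho = 0.88) and 0.83 with Krt8 (adjusted 0.027, rho = 0.82). Leaving out the 2 farthest arrays gave 0.69 and 0.88, the 7 arrays gave 0.89 and 0.93, and centring within genotype gave 0.66 and 0.57. A higher r was found for 0.197% and 0.276% of genes past the filter. Because this probe set was taken up after its values were seen, these p-values do not carry the weight of a choice made without them.

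**Figure D3:**
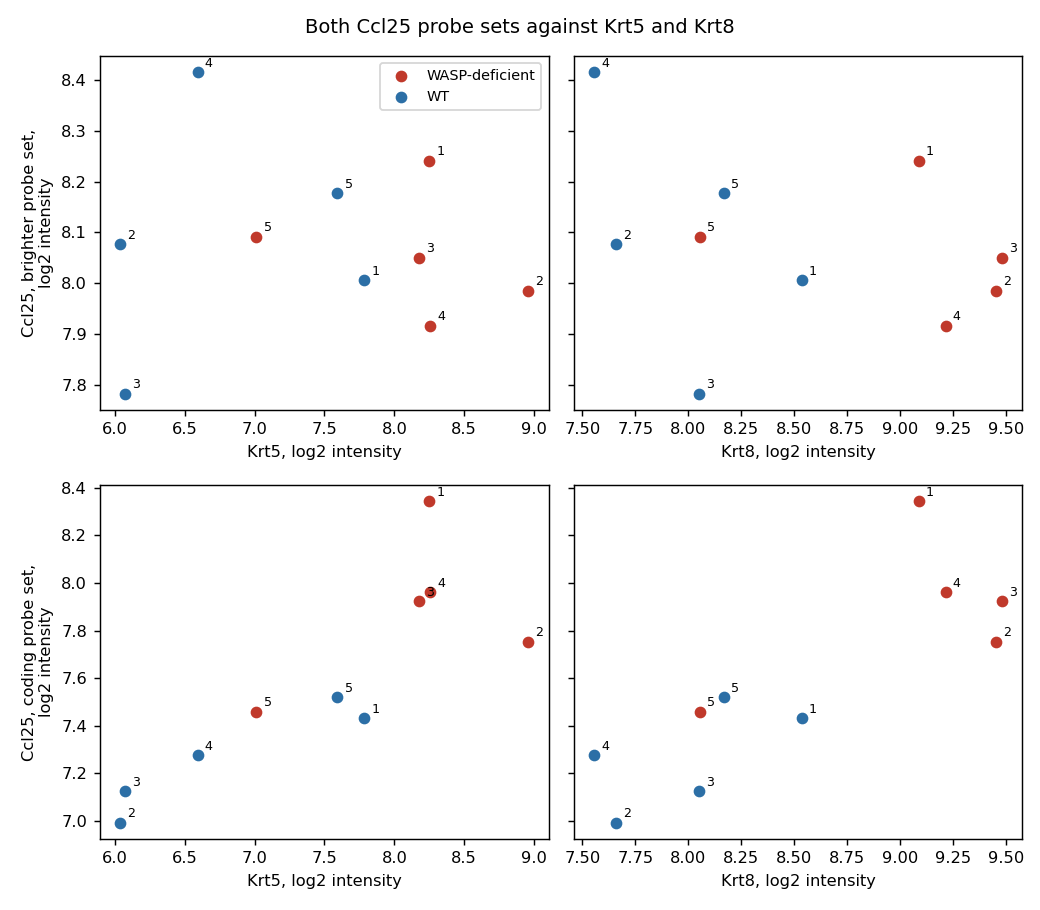
Log2 intensity of the brighter (top) and coding (bottom) Ccl25 probe set against that of Krt5 (left) and Krt8 (right), 1 numbered point per array, WASP-deficient in red and WT in blue. In the lower panels the values go up together (r = 0.84 and 0.83), and in the upper panels they do not (r = -0.03 and -0.31).

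The 8 genes were then set beside 3 wider lists of epithelial genes. The median r with Krt5 was 0.42 for the 8 genes, 0.46 for 26 other thymic epithelial genes, 0.61 for 23 keratin and epithelial junction genes and 0.09 for 14 lung epithelial genes, against -0.01 over all genes past the filter. With Krt8 the medians were 0.26, 0.47, 0.56 and 0.19, against -0.02. These are descriptions over the same arrays, and differences between the lists were not tested. In the same order, 2 of 8, 9 of 26, 10 of 25 (counting Krt5 and Krt8) and 9 of 14 genes lay under the filter. The low signal limits what their r can carry.

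Among the other thymic epithelial genes, 4 of 26 passed with Krt5 after adjustment over the comparison lists and 2 of 26 with Krt8. The share of all genes that would pass in this way was not computed. The counts for this list and for the keratin and lung lists below are therefore descriptions. With Krt5 these were the histidine decarboxylase gene Hdc, a tuft cell marker (r = 0.87), the T cell growth factor gene Il7 (0.83), the growth factor receptor gene Fgfr2 (0.81) and Fezf2 (0.81), and with Krt8 Hdc (0.90) and Fezf2 (0.80). Over the 7 arrays these were 0.96, 0.81, 0.82 and 0.91 with Krt5 and 0.94 and 0.83 with Krt8. Centred within genotype they were 0.77, 0.81, 0.58 and 0.63 with Krt5 and 0.84 and 0.58 with Krt8. The lowest was Hoxa3, a patterning gene of the early thymus, at -0.60 and -0.55. Trpm5, another tuft cell marker of the list, had r = 0.03 with Krt5 and 0.25 with Krt8. Over the 7 arrays it had -0.20 and -0.14. Fgfr2, Il7, Hoxa3 and Trpm5 lay under the filter. Of the 17 tested genes of the list, 0 passed for genotype, with 14 differences above 0 and 3 below and a median of 0.11. Fezf2 and Hdc (difference 0.44, SE 0.18) had the smallest p of those tested. Fgfr2, in the fit without the filter, had a smaller one, with 6.31 to 6.61 on WASP-deficient arrays and 5.82 to 6.29 on WT arrays (difference 0.53, SE 0.10, limma adjusted p = 0.999).

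Of the keratin and junction genes, 5 of 23 passed with Krt5 and 8 of 23 with Krt8. Krt14 (0.99) and Krt17 (0.95) led with Krt5 and Krt7 (0.94) and Krt17 (0.93) with Krt8, and Krt13 was lowest at -0.21 and -0.07. Over the 7 arrays the leading genes had 0.99 and 0.97 with Krt5 and 0.96 and 0.91 with Krt8, in the same order. Krt13 lay under the filter. For genotype 0 of the 15 tested genes of the list passed, all 15 with a difference above 0 and a median of 0.52. The smallest p was that of the claudin gene Cldn4, at 7.39 to 7.85 on WASP-deficient arrays and 6.84 to 7.30 on WT arrays (difference 0.52, SE 0.12, limma adjusted p = 0.999), followed by Krt8 (1.06, SE 0.28). Of the lung genes, 0 of 14 passed with Krt5 and 1 of 14 with Krt8, the club cell secretory gene Scgb1a1 (0.75, rho = 0.54 with permutation p = 0.115, r = 0.47 without the 2 farthest arrays and 0.86 over the 7). The phosphate transporter gene Slc34a2 was highest with Krt5, at 0.68 (0.64 over the 7 arrays), and the surfactant gene Sftpc lowest with both, at -0.45 and -0.47. Scgb1a1, Slc34a2 and Sftpc all lay under the filter. Sftpc was dim on every array, at 5.06 to 5.39 in both genotypes, and Scgb1a1 lay at 3.95 to 4.96 on WASP-deficient arrays and 3.83 to 4.08 on WT arrays. The summed level of the lung list was 10.07 to 10.28 in WASP-deficient lymphomas and 10.02 to 10.16 in WT lymphomas. For genotype 0 of its 5 tested genes passed, with Ager at 0.10 (SE 0.11) and Sftpa1 at 0.05 (SE 0.08).

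**Figure D4:**
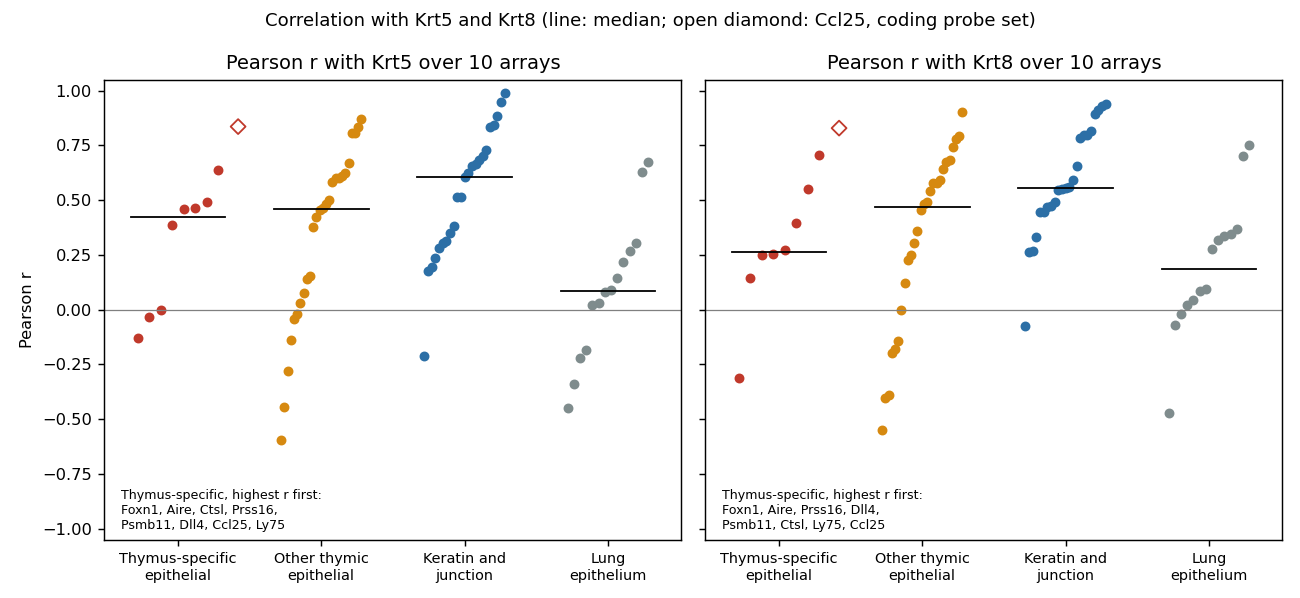
Pearson r over 10 arrays with Krt5 (left) and Krt8 (right), 1 point per gene in order of r within each list, with the line at the median and the open diamond for the coding Ccl25 probe set. The keratin list sits highest with medians 0.61 and 0.56, the lung list lowest with 0.09 and 0.19, and the thymus-specific genes between, with Foxn1 at their top.

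Dendritic cells also make Ly75, and macrophages also make Ctsl. In the dendritic cell list 0 of 9 tested genes passed for genotype, 5 with a difference above 0, and its summed level was 11.22 to 11.66 in WASP-deficient lymphomas and 10.95 to 11.32 in WT lymphomas. Itgax differed by 0.32 (SE 0.19) and Fscn1 by 0.80 (SE 0.47), the smallest p of the list. In the macrophage list 0 of 15 passed, 14 with a difference above 0, and the summed level was 13.82 to 14.40 in WASP-deficient lymphomas and 13.85 to 14.18 in WT lymphomas. Fcgr3 differed by 0.60 (SE 0.16) and Ctss by 0.70 (SE 0.21). Of these markers 6 of 15 and 3 of 18 lay under the filter, and their part in the Ly75 and Ctsl signals was not tested.

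The genes with the most similar level over the 10 arrays differed from member to member, which is a description of these arrays. The highest r with Prss16 was 0.98 for the kinase gene Mapk11, with Dgkh and the desmosome gene Dsg2 at 0.95. Over the 7 arrays without WASP-deficient array 1 and WT arrays 4 and 5, these were 0.95, 0.29 and 0.60. For Aire they were Mrps2, Polr2l and Zfp574, each at 0.94, and for Ly75 the claudin gene Cldn10 (0.96), Smyd2 (0.95) and Npat (0.95). For Ctsl they were Ccdc50 (0.93), Cnot7 (0.92) and Pip5k1a (0.88), and for Dll4 Acad9 (0.97), Ormdl3 (0.96) and Zfp647 (0.96). The brighter Ccl25 probe set was most like Acvr1b (0.93), Znrf1 (0.92) and Mylip (0.92). The coding one was most like the adhesion gene Cadm1 (0.93), the desmosome-linked gene Perp (0.91) and the retinoic acid binding gene Crabp2 (0.88).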

How the data were processed

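Total RNA of 10 lymphomas was hybridised to 1 Affymetrix array each, and the authors deposited probe set intensity values, which the submitters' processing notes credit to RMA. Its quantile normalization hides array-wide differences. The software version and annotation were not given in the sources used here. Values of 3.309 to 15587.9 show a linear scale, so log2 was taken, although the design had assumed log2 values.

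Of 34760 probe sets, 21640 had 1 symbol in the platform annotation, 1321 had several and 11799 were not named here. Genes whose highest-mean probe set was at or above the 40th percentile of means (12670) were compared with limma 3.58.1 in R 4.3.3, with no covariate and Benjamini-Hochberg adjustment over all of them. Members under the filter were taken from the fit without it. Correlations used permutation with 100000 resamples (exact for the 7 arrays and within genotype) in Python 3.11.15 with scipy 1.17.1, and the figures matplotlib 3.10.9. The fit was tested on simulated data.

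A marker list's summed level is the log2 of its summed linear intensities. The genes, lists and tests were chosen with earlier results of these data known. Genes named are the members, Krt5, Krt8 and Was, the 2 of smallest p in each other list used, the 3 most alike in level to each member past the filter, and the extremes of r in the epithelial lists. Cd2, Cd3d and Xist are given where results move with them. Cd3e, Cd3g, Acta1, Ckm, Tbata, Fgfr2, Eya1, Spib, Trpm5, Tff3, Sst, Tg, Pcp4 and the coding Ccl25 probe set were named after their values were seen. Alternatives changed the filter, probe set rule, scaling, pseudocount, covariates, test and arrays. The Ccl25 coding probe set, the fit without 3 arrays and the correlations without 2 arrays were added after seeing the data.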

Additional observations from a re-analysis of the deposited data

Results flagged for a closer look

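Of 28 groups of 5 arrays examined for a value far from the others, 3 held one, and chance alone marks about 1 in 20 groups. Prss16 was at 8.25 on WASP-deficient array 1, with a gap to the next array of 0.79 of the group's range, against a critical value of 0.71. Krt8 was at 8.05 on WASP-deficient array 5, below the other 4 (0.72 of the range). Fezf2 was at 6.51 on WT array 1, above the other 4 WT arrays (0.87 of the range).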

How the results depend on the processing

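No member passed the test of genotype under any alternative run. Over all genes the count was 1, but 0 with the Xist level as covariate or with the replicate number as a replicate block, and 2 with the first component as covariate or without the 3 arrays apart on it. Leaving out 1 array gave 1 to 4 genes (2 without WASP-deficient array 1, 4 without WT array 3). The Was adjusted p was 0.376 with Xist and 0.136 with the replicate block in limma. Same-numbered arrays of the 2 genotypes did not deviate together (r -0.71, 0.37, 0.29, -0.41 and -0.37 for numbers 1 to 5). The number of keratin pairs that passed was 0 throughout, except 2 with the coding Ccl25 probe set. The Ccl25 difference, -0.03, became 0.62 with the coding probe set, 0.29 with the mean of probe sets, 0.24 with Xist, 0.043 with the first component, 0.0052 with array weights and 0.056 without the 3 arrays.

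Its r with Krt5 became 0.84 with the coding probe set, 0.73 with the mean of probe sets, 0.051 centred within genotype and 0.14 over 7 arrays, and with Krt8 0.83 and 0.62 with the coding and mean probe sets. For Dll4 and Krt5, r was 0.033 with median-centred arrays, 0.0075 with a pseudocount of 32, 0.30 without the 2 farthest arrays and 0.22 without WASP-deficient arrays 1 and 2. Signs also turned for Dll4 and Krt8 (-0.054) and Ctsl and Krt8 (-0.11) centred within genotype, Ly75 and Krt8 over 7 arrays (-0.28), and Ly75 (0.65) and Ctsl (-0.36) with Krt5 without the 2 farthest arrays. The cause was not tested.

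Leaving out 1 array gave differences of -0.11 to 0.047 for Ccl25, -0.025 to 0.045 for Psmb11 and -0.23 to 0.068 for Ly75. It gave r with Krt5 and Krt8 of -0.45 to 0.25 and -0.56 to 0.011 for Ccl25, -0.24 to 0.14 and -0.012 to 0.45 for Dll4, and -0.32 to 0.13 and -0.052 to 0.35 for Ly75. The Prss16 difference ran from 0.07 without WASP-deficient array 1 to 0.60, and the Aire difference from 0.27 without WASP-deficient array 2 to 0.57. Foxn1 and Psmb11 are dim, so small differences there cannot be resolved.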

Other observations

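The summed level of the other thymic epithelial genes was 12.67 on WASP-deficient array 1 and 12.77 and 12.80 on WT arrays 4 and 5, against 11.16 to 11.63 on the other 7 arrays. Eya1, a patterning gene of the thymus anlage that other tissues also express, was at 11.88, 12.18 and 12.06 on the same 3 arrays and at 5.53 to 7.70 on the other 7. It made up the largest part of the sum on those 3 arrays, so that the higher sum there does not describe the list as a whole. In that list, Spib, a transcription factor of medullary epithelium that dendritic and B cells also make, was at 9.42 on WASP-deficient array 4 and at 6.06 to 7.57 on the other 9 arrays. Eya1 and Spib were named after their values were seen.

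Other cell types of the mediastinum gave 0 genes past the limma threshold in every list. Of 16 immature thymocyte genes 7 had a difference above 0, with a median of -0.16, Dntt at -0.37 (SE 0.18) and Notch1 at -0.20 (SE 0.12). Of 12 T cell genes 5 were above 0, with Lat at -0.16 (SE 0.09) and Bcl11b at -0.24 (SE 0.12), and of 3 B cell genes 2 were, with Cd79b at 0.26 (SE 0.26) and Ebf1 at -0.31 (SE 0.12). Of 9 fibroblast genes 1 was above 0, Acta2 at 0.83 (SE 0.23), with Mgp at -0.38 (SE 0.16) and a median of -0.38. Of 7 adipocyte genes 1 was above 0, with Adipoq at -1.07 (SE 0.23) and Cidec at -0.66 (SE 0.19). Of 7 muscle genes 0 were above 0, with Actc1 at -0.39 (SE 0.26) and Nppa at -0.18 (SE 0.11). On WT array 4 the skeletal muscle genes Acta1 and Ckm were at 11.59 and 10.95, against 6.92 to 7.19 and 7.08 to 7.28 on the other 9 arrays.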
